A study of Mus musculus with 40 samples.

Results

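Zmiz1 was deleted in mice with the polynucleotide pI-pC, and early T-cell precursors (ETP) sorted from their thymus were compared with ETP of mice that carried the same Cre transgene without the floxed alleles. The comparison was chosen by its labels: the 3 libraries of the group DeltaMxCre ETP against the 3 of the group MxCre ETP, 6 of 40 libraries in the series. It was read across all genes of 1 count table. The series also holds the same deletion in double-negative 3 (DN3) thymocytes, deletion by tamoxifen in both stages, and an antibody that blocks Notch1 (AntiNRR) set against control IgG. DeltaMxCre mice had the genotype MxCreZmiz1f/f, and control mice had MxCre alone, all of the strain C57BL/6. Mice of both groups received 40 mcg of pI-pC into the peritoneum 5 times at intervals of 2 days, with 3 mice per group, and were sorted 8 weeks later. Ages are not given in the sources used here. The ETP gate took live cells positive for CD44 and cKit and negative for CD25 and lineage markers, and RNA came from 5K to 20K cells per sort. Both groups thus share the transgene, the interferon inducer and the interval.

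ETP are the most immature thymocytes. They still express genes of blood stem and progenitor cells, and Notch1 signals from the thymic stroma move them towards the DN3 stage, where the pre-T-cell receptor is first assembled. On ligand binding Notch1 is cut, and its intracellular part joins Rbpj and Maml1 on DNA to switch on target genes such as Hes1, Dtx1 and Ptcra. Zmiz1, a protein related to the PIAS family, is known as a co-activator of Notch1 in T cells. The MxCre transgene is switched on by interferon in many tissues, blood stem cells included, so deletion is not limited to thymocytes, and the ETP of these mice had developed after the deletion.

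Dtx1, Ptcra, Il2ra, Cdh1 and Bst1 rose in DeltaMxCre ETP, by 2.41- to 11.8-fold of the mean level, and no gene fell by the same test. The test was edgeR's quasi-likelihood test with Benjamini-Hochberg adjusted p under 0.05, by which 5 of 12010 genes were higher (0.0416%) and 0 lower (0%). With no adjustment, p under 0.05 in the same fit held for 326 genes on the higher side (2.71%) and 342 on the lower side (2.85%), and DESeq2 called 43 higher and 43 lower (0.358% each). Many of the DESeq2 calls were genes with no or almost no counts in 1 whole group. Examples are Tceal8 (312 counts in MxCre ETP, 0 in DeltaMxCre ETP), 2010300C02Rik (0 and 255) and Rad9b (1 and 285). EdgeR called none of these examples. The 3 replicates did not overlap between the groups for 740 genes on the higher side (6.16%) and 768 on the lower side (6.39%). Across all genes tested the median log2 fold change was -0.03, with 5704 genes above 0 and 6306 below. Levels are given below in CPM (read counts scaled to library size, after TMM normalization), in the order of libraries 1, 2 and 3 of MxCre ETP and then of DeltaMxCre ETP, and log2 fold changes are DeltaMxCre minus MxCre. In sorted bulk RNA, fewer cells of a type and less RNA per cell cannot be told apart.

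Dtx1, Ptcra and Il2ra are direct or closely linked Notch targets, so the sequences around their start sites are shown first. Each is the RefSeq promoter on GRCm38.p6, from 250 bases before the start to 50 after it, and 3 of the 5 genes that rose were in the table. Matches to the RBPJ letters TGGGAA, the RUNX letters TGTGGT and the E-box letters CAGNTG, on both strands, are in capitals. The windows lie at chr17:46763663-46763962 on the minus strand (Ptcra), chr5:120711620-120711919 on the minus strand (Dtx1) and chr2:11642542-11642841 on the plus strand (Il2ra).
Ptcra: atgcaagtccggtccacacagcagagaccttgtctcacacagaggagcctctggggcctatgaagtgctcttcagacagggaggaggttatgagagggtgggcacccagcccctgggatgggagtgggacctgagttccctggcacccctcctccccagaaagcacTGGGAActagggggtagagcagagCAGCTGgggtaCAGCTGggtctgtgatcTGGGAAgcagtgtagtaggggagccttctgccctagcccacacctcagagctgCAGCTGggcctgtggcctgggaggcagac
Dtx1: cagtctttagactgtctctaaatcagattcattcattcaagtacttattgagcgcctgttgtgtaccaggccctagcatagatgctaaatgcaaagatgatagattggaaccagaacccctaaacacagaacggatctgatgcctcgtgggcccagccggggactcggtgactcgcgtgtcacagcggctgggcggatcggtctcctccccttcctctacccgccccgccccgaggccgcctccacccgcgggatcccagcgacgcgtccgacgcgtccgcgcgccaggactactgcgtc
Il2ra: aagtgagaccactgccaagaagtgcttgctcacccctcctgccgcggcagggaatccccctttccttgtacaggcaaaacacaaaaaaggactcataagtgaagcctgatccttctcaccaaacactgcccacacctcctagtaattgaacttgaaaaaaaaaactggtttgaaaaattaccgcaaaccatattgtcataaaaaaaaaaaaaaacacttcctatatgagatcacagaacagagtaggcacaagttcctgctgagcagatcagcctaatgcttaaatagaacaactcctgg
The Ptcra window held 2 RBPJ matches, at bases 167 to 172 and 219 to 224 of the window, and 3 E-box matches, at 191 to 196, 202 to 207 and 272 to 277. The Dtx1 and Il2ra windows held none of the 3 motifs. The Dtx1 window lies wholly inside the gene as GENCODE M21 places it (chr5:120680202-120711927). It therefore covers no base before that start. Among 32851 promoters of this length, 25.6% held TGGGAA, 16.8% TGTGGT and 51.4% CAGNTG. A match describes the letters of this window only, and the motifs do not overlap each other.

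Zmiz1 itself (chr14:25459185-25666743, plus strand, GENCODE M21 on GRCm38), the deleted gene, was measured at 298, 223 and 142 CPM in MxCre ETP and 54.0, 89.4 and 106 CPM in DeltaMxCre ETP. Every deleted library lay below every control, yet the lowest control and the highest deleted library were close. The log2 fold change was -1.41 (SE 0.302), with an adjusted p of 0.256 by edgeR's quasi-likelihood test and 0.00269 by DESeq2. Without MxCre ETP 3, edgeR's adjusted p was 0.0222, and without MxCre ETP 2 it was 0.711. Leaving out any other library did not bring it under 0.05. Its mean was 221 ± 77.8 CPM in controls (SD, n = 3) and 83.0 ± 26.4 CPM after deletion (SD, n = 3), so 2.66-fold more Zmiz1 RNA was counted in the controls. Which exons the floxed alleles remove is not given in the sources used here, and a count over the whole gene also takes reads from the exons that remain. Of the 6 members of the Zmiz and Pias family, 2 lay above 0, Zmiz2 (0.16) and Pias1 (0.20), and 4 below. Pias3 (-1.48), Pias4 (-0.53) and Pias2 (-0.05) overlapped between the groups, as did Zmiz2 and Pias1, and none of these 5 was called by either tool. Pias3 was at 16.3, 12.6 and 4.55 CPM in controls and 3.46, 7.01 and 1.48 CPM after deletion.

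**Figure D1:**
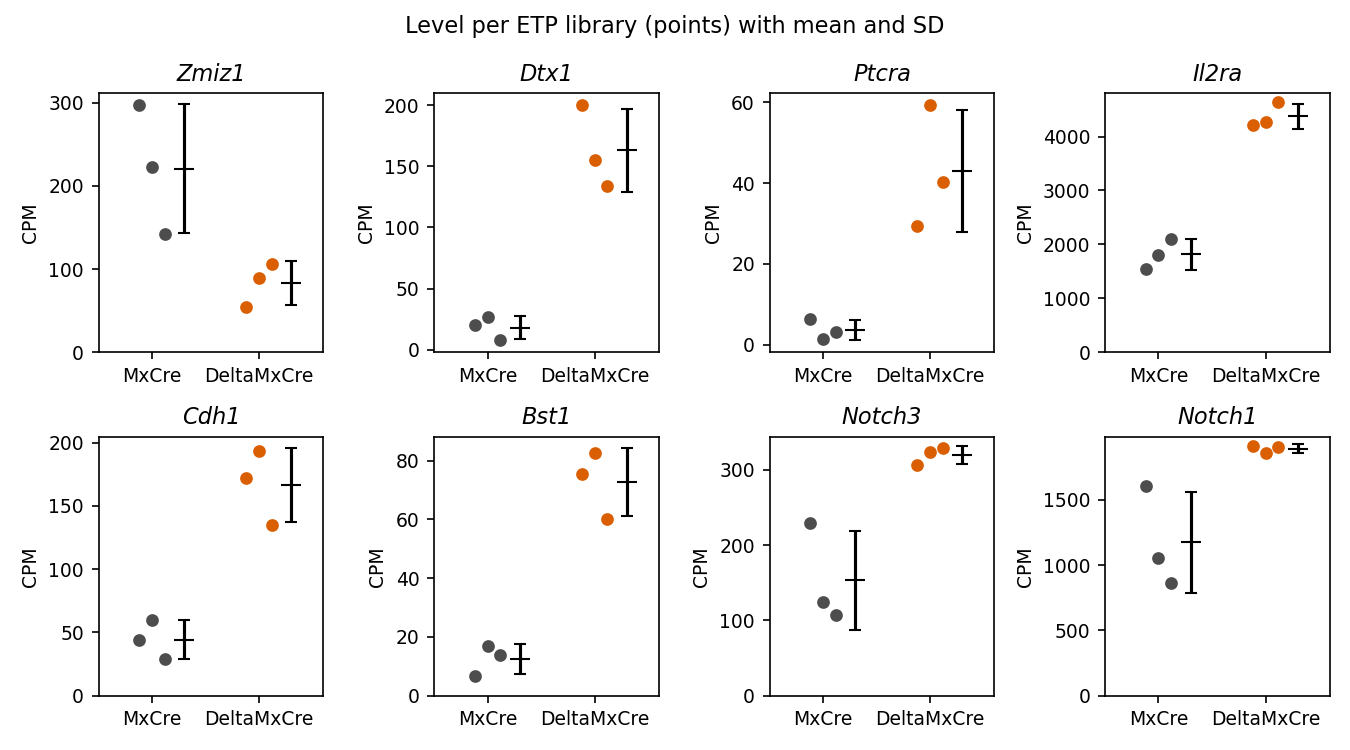
CPM of Zmiz1, the 5 genes that rose by edgeR's test, Notch3 and Notch1 in the 6 ETP libraries. Points are libraries 1 to 3 of each group, with the mean and SD (n = 3) at their right; the groups do not overlap in any of the 8 panels.

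Dtx1, which encodes Deltex1, a Notch-induced ubiquitin ligase that acts on Notch receptors, had the lowest p. Its level was 19.8, 26.7 and 7.52 CPM in MxCre ETP and 200, 155 and 134 CPM in DeltaMxCre ETP. The lowest deleted library exceeded the highest control several times over. The log2 fold change was 3.18 (SE 0.392; adjusted p 0.0185 by edgeR's quasi-likelihood test), a 9.07-fold ratio of means, for the gene at chr5:120680202-120711927 on the minus strand.

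Ptcra, the invariant pre-T-cell receptor alpha chain, had the largest ratio of means, 11.8-fold. It stood at 6.42, 1.37 and 3.10 CPM in controls and 29.3, 59.3 and 40.4 CPM after deletion. Its log2 fold change was 3.56 (SE 0.561), and its adjusted p of 0.0493 by edgeR was just under the threshold. This is the gene whose window above holds RBPJ and E-box letters, and it lies at chr17:46755663-46763712 on the minus strand. The call was lost without MxCre ETP 3 (adjusted p 0.0607) and with limma voom (0.236).

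Il2ra encodes CD25, the interleukin-2 receptor alpha chain that the ETP gate excludes at the cell surface. Its RNA was abundant in every library all the same, at 1537, 1808 and 2108 CPM in MxCre ETP and 4208, 4275 and 4644 CPM in DeltaMxCre ETP. The 3 libraries of each group lay close together and far from the other group. The log2 fold change was 1.27 (SE 0.190; adjusted p 0.0362, edgeR), for the gene at chr2:11642807-11693193 on the plus strand.

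Cdh1 encodes E-cadherin, a cell adhesion molecule. It was measured at 43.6, 59.8 and 29.1 CPM in controls and 172, 193 and 135 CPM after deletion, again without overlap. The log2 fold change was 1.92 (SE 0.283; adjusted p 0.0362, edgeR), at chr8:106603351-106670246 on the plus strand. Bst1 (CD157), a surface enzyme that cleaves NAD, was measured at 6.64, 16.8 and 13.9 CPM in controls and 75.5, 82.6 and 60.2 CPM after deletion. Bst1 had a log2 fold change of 2.54 (SE 0.368; adjusted p 0.0362, edgeR), at chr5:43818885-43843986 on the plus strand. All 5 rises were called by edgeR only with the 3 deleted libraries together: without DeltaMxCre ETP 1, 2 or 3 the lowest adjusted p of any gene was 0.164, 0.139 and 0.0562. Leaving out MxCre ETP 2 kept Dtx1 alone, and leaving out MxCre ETP 1 kept all 5 and gave 12 higher and 5 lower genes.

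The other ETP controls of the same table give these levels a reference, with no test between them. In IgG ETP the means were 26.1 ± 1.77 CPM for Dtx1, 2187 ± 376 for Il2ra, 59.2 ± 12.5 for Cdh1 and 27.9 ± 5.96 for Bst1 (SD, n = 3), each nearer to MxCre ETP than to DeltaMxCre ETP. Ptcra differed, at 33.5 ± 8.27 CPM in IgG ETP (SD, n = 3), near its mean of 43.0 ± 15.2 CPM in DeltaMxCre ETP and above the 3.63 ± 2.57 CPM of MxCre ETP. Rag1, Cd3e and Spon1, described below, were also nearer to DeltaMxCre ETP. In IgG ETP they were at 676 ± 203, 552 ± 128 and 13.7 ± 3.16 CPM (SD, n = 3). Their means were 234, 363 and 2.38 CPM in MxCre ETP and 619, 556 and 15.9 CPM in DeltaMxCre ETP. Capn5, Gfra1 and Pcmtd1 were nearer to MxCre ETP. These further genes were picked after their values were seen.

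The Notch receptors and the proteins that cut and modify them were measured in full, 19 of 19 members passing the filter on low counts, with a median log2 fold change of 0.09. None was called by edgeR, and DESeq2 called 1, Notch3. Notch1 stood at 1607, 1058 and 861 CPM in MxCre ETP and 1914, 1856 and 1908 CPM in DeltaMxCre ETP, with tight values after deletion and a wide spread in controls (log2 fold change 0.69; adjusted p 0.649, edgeR). Notch3, a receptor whose own gene is a Notch target, stood at 229, 124 and 107 CPM in controls and 307, 324 and 329 CPM after deletion. Its log2 fold change was 1.06, with adjusted p 0.403 by edgeR and 0.0192 by DESeq2. The groups did not overlap for either receptor. Notch2 (-0.10), the protease gene Adam10 (0.12) and the glycosyltransferase gene Lfng (0.30) overlapped between the groups.

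In the transcription complex, 15 of 15 members were tested and none was called by either tool. Rbpj, the DNA-binding partner, had a log2 fold change of 0.13, from 132 to 190 CPM in controls and 171 to 196 CPM after deletion. Maml1 (35.8, 50.5 and 14.1 CPM in controls, 66.0, 57.1 and 66.6 CPM after deletion) and the acetyltransferase gene Kat2b (42.5, 32.9 and 25.6 CPM, then 60.8, 60.5 and 69.9 CPM) were the 2 members whose groups did not overlap, both higher after deletion. Each had a log2 fold change of 0.92 that did not pass edgeR's test. Over all genes, 6.16% were higher without overlap.

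Among 16 Notch target genes, 12 passed the filter, 8 with a log2 fold change above 0 and 4 below, with a median of 0.54. By edgeR 3 were called (Dtx1, Ptcra and Il2ra), all higher, and DESeq2 added Notch3. The groups did not overlap for 6 on the higher side and 1 on the lower side (6.16% and 6.39% of all genes). Hes1, the classical repressor target, was at 43.5, 32.5 and 44.9 CPM in controls and 58.3, 68.0 and 63.5 CPM after deletion (log2 fold change 0.65; adjusted p 0.822, edgeR). Nrarp, a feedback inhibitor of Notch, overlapped between groups (6.31, 24.5 and 19.2 CPM, then 37.1, 13.1 and 12.8 CPM). Myc also overlapped, at 100, 93.9 and 75.6 CPM and then 103, 68.7 and 80.4 CPM (log2 fold change -0.10). Tcf7, which encodes the T-lineage factor TCF-1, was the 1 target lower in every deleted library, at 1368, 1033 and 839 CPM in controls and 737, 719 and 763 CPM after deletion (-0.55, not called). Hes5, Hey1, Hey2 and Heyl were too low to test, with no library above 3.09 CPM. The targets did not move as a block: Dtx1 and Ptcra lay above 3 on the log2 scale while Myc and Nrarp overlapped between the groups, and the sign of Myc and of Nrarp turned when 1 library was left out.

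The pre-T-cell receptor and recombination list, 19 of 19 tested, had 14 members above 0 and 5 below (median 0.23), with 1 called by edgeR, Ptcra. Rag1, a subunit of the recombinase, was at 240, 102 and 361 CPM in controls and 625, 527 and 704 CPM after deletion. DESeq2 called it (log2 fold change 1.40; adjusted p 0.00369) and edgeR did not (0.403). Its partner Rag2 had a log2 fold change of -0.33, and Dntt, the terminal transferase, one of 0.01. Cd3e (299, 416 and 372 CPM, then 557, 461 and 650 CPM) and Cd3g (522, 471 and 788 CPM, then 997, 812 and 925 CPM) were higher in every deleted library without being called. Of 20 T-lineage transcription factors none was called by either tool, with 6 above 0 and 14 below (median -0.10). Gata3 (-0.35) and Bcl11b (0.49), which fix T-cell identity, overlapped between groups. Bcl11b ranged from 346 to 1106 CPM in controls and from 914 to 955 CPM after deletion.

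In the stem and progenitor list every tested member lay on the lower side. Of its 25 members 22 were tested, with 0 above 0 and 22 below and a median log2 fold change of -0.91, against -0.03 for all genes. None passed edgeR's test, DESeq2 called 7 lower (0.358% of all genes were), and the groups did not overlap for 13, all lower (6.39% of all genes). Over the settings tried, the median stayed between -1.06 and -0.84. The list's summed level ran from 1908 to 2470 CPM in MxCre ETP and from 1199 to 1575 CPM in DeltaMxCre ETP. Among the members below the filter, Hoxa10 had 21 counts in DeltaMxCre ETP and 0 in controls, and Gata2 was at 0.27, 0.238 and 0 CPM and then 0, 7.29 and 0.709 CPM. With these genes kept in where they had a count, the median over 24 members was -0.84. These are counts and medians of a list chosen with earlier results of these data known, with no test of the list. The shares over all genes beside them are therefore descriptive only.

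Cd34, a surface sialomucin of blood progenitors, was at 116, 163 and 117 CPM in controls and 52.4, 36.9 and 16.6 CPM after deletion (log2 fold change -1.91; adjusted p 0.141 by edgeR and 0.000304 by DESeq2). Flt3, a cytokine receptor of multipotent progenitors, was at 17.3, 14.4 and 10.3 CPM and then 1.73, 0.113 and 2.60 CPM (-3.24; 0.566 by edgeR, 0.0486 by DESeq2). Both genes were lower in every deleted library. Bcl11a, a transcription factor of lymphoid progenitors, was at 98.9, 89.6 and 53.6 CPM and then 38.0, 22.2 and 27.0 CPM (-1.47; 0.252 by edgeR, 0.00957 by DESeq2). Cd93, a surface glycoprotein of early progenitors, had a log2 fold change of -0.85 (DESeq2 adjusted p 0.0318). Hoxa9, a homeobox gene of stem and progenitor cells, had 198 counts over the 3 controls and 0 over the 3 deleted libraries. Against a floor of 3 counts over the group, that is at least 57-fold lower. Gfi1b, a repressor of blood progenitors, had 188 counts in controls and 1 after deletion (ratio 162, counting interval 28.8 to 6442). In IgG ETP, set beside these with no test, the means were 110 ± 90.9 CPM for Cd34 and 26.7 ± 25.1 for Flt3 (SD, n = 3). Those of Bcl11a and Cd93 were 96.5 ± 45.4 and 253 ± 61.4 CPM (SD, n = 3). For Cd34 and Flt3 the spread among these controls was nearly as large as the mean.

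The genes of the gate itself were part of this pattern. Cd44 was at 98.6, 180 and 124 CPM in controls and 48.0, 68.4 and 49.1 CPM after deletion (log2 fold change -1.28; adjusted p 0.252 by edgeR, 0.00646 by DESeq2), and Kit, which encodes cKit, at 332, 436 and 330 CPM and then 245, 280 and 212 CPM (-0.58; not called by either tool). Neither overlapped between the groups, and Il2ra, the gene of the marker gated out, moved the other way. In IgG ETP, Cd44 was at 89.6 ± 44.9 CPM and Kit at 277 ± 112 CPM (SD, n = 3). Both means lay between those of MxCre ETP and DeltaMxCre ETP. Lyl1, Sfpi1 (the symbol the table uses for Spi1) and Ly6a, also in the list, overlapped. All the ETP markers checked, Kit, Cd44, Flt3, Cd34, Lyl1, Hhex and Tcf7, were detected in all 6 libraries.

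**Figure D2:**
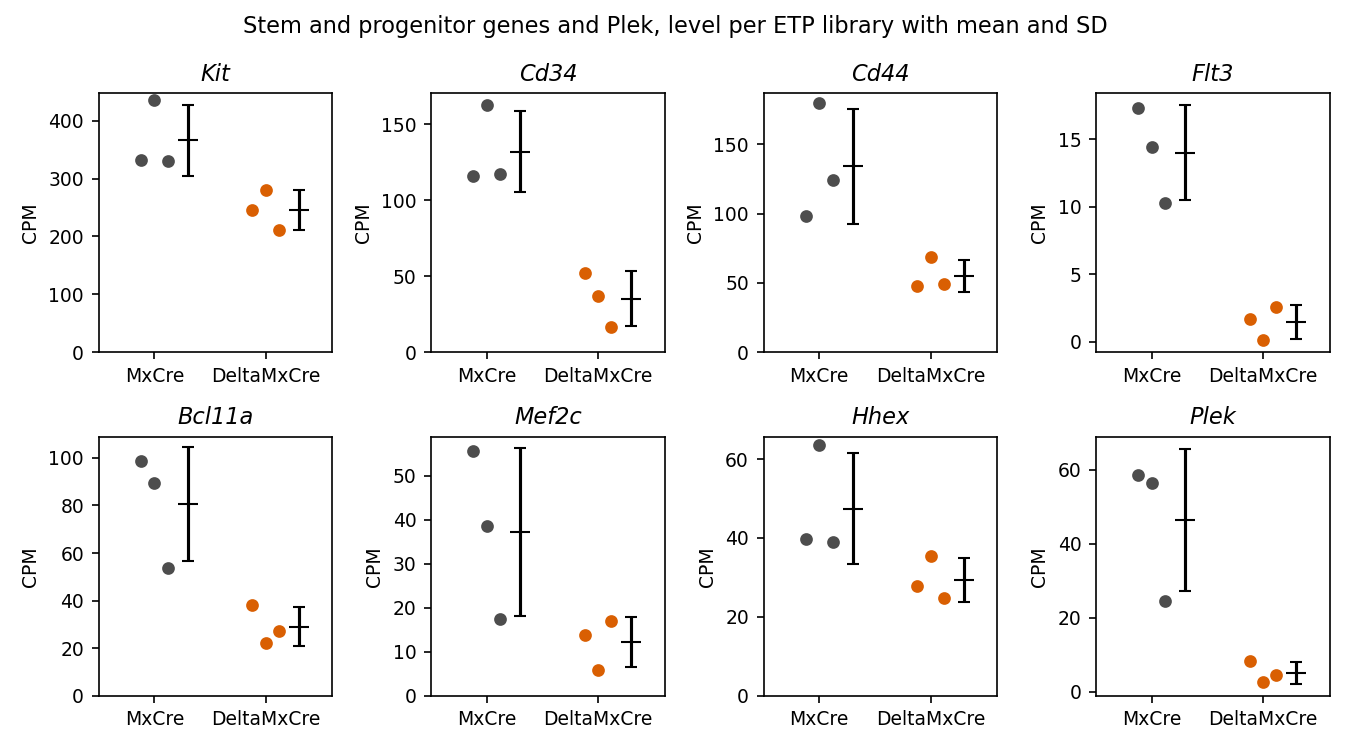
CPM of 7 stem and progenitor genes and of Plek in the 6 ETP libraries, points by library with the mean and SD (n = 3). All 8 genes lie lower in the DeltaMxCre libraries, without overlap, and none passed edgeR's test.

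Genes that mark the step from ETP to DN3 were chosen from the IgG libraries, which the deletion comparison does not use. Between IgG DN3 and IgG ETP, edgeR called 906 genes higher in DN3 (7.12% of 12720) and 967 higher in ETP (7.6%). Of these, 313 were at least 1 log2 unit higher in DN3 and 466 at least 1 log2 unit higher in ETP. Among the 313 DN3-high genes, 275 passed the filter in the deletion comparison and 8 had no counts there. Over all 313 members, 215 lay above 0 in DeltaMxCre ETP and 90 below, with a median difference of 0.36. Among the 275 tested, the groups did not overlap for 51 higher and 3 lower. Over all 466 ETP-high genes, 168 lay above 0 and 298 below, with a median of -0.20. Among the 451 of them tested, 17 higher and 77 lower did not overlap. For all genes tested, these shares were 6.16% higher and 6.39% lower. By the fitted log2 fold change, 186 of the 275 DN3-high genes tested and 158 of the 451 ETP-high genes tested lay above 0. Over all genes tested that share was 47.5%. By the difference of mean log2(CPM + 0.5) over all members, 68.7% of the DN3-high and 36.1% of the ETP-high genes lay above 0. With at least 2 log2 units between the stages, the medians were 0.48 and -0.63.

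Each library's mean log2(CPM + 0.5) over these genes places each library between the stages. For the DN3-high genes it was 3.40, 3.01 and 2.78 in MxCre ETP and 3.46, 3.68 and 3.54 in DeltaMxCre ETP. The DN3 libraries of the table lay far above both, from 4.73 to 5.31. For the ETP-high genes it was 4.65, 5.07 and 4.85 in MxCre ETP and 4.57, 4.43 and 4.49 in DeltaMxCre ETP, and 2.63 to 3.34 in DN3 libraries. DeltaMxCre ETP thus stayed among the ETP libraries. The IgG ETP libraries, which chose the genes, ran from 3.24 to 3.53 for the DN3-high genes and from 4.47 to 5.03 for the ETP-high genes, and AntiNRR ETP from 3.18 to 3.61 and from 4.44 to 5.08. These ranges cover much of the distance between MxCre and DeltaMxCre ETP. With the genes at least 2 log2 units higher in ETP they did not: DeltaMxCre ETP ran from 3.03 to 3.23, below MxCre ETP (3.64 to 4.23), IgG ETP (3.37 to 4.17) and AntiNRR ETP (3.33 to 4.31). With the genes at least 2 log2 units higher in DN3, MxCre ETP was the group below the others, at 0.96 to 1.14. There IgG ETP ran from 1.18 to 1.51, AntiNRR ETP from 1.23 to 1.59 and DeltaMxCre ETP from 1.59 to 1.66. In MxCre ETP, the library lowest in DN3-high genes, MxCre ETP 3, was also the one with a Malat1 share of 0.0777%, against 0.375% to 0.484% in the other 5. Without it the median of the DN3-high genes was 0.22 in place of 0.36. Whether the share of cells beyond the ETP stage differed between the sorts was not tested.

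**Figure D3:**
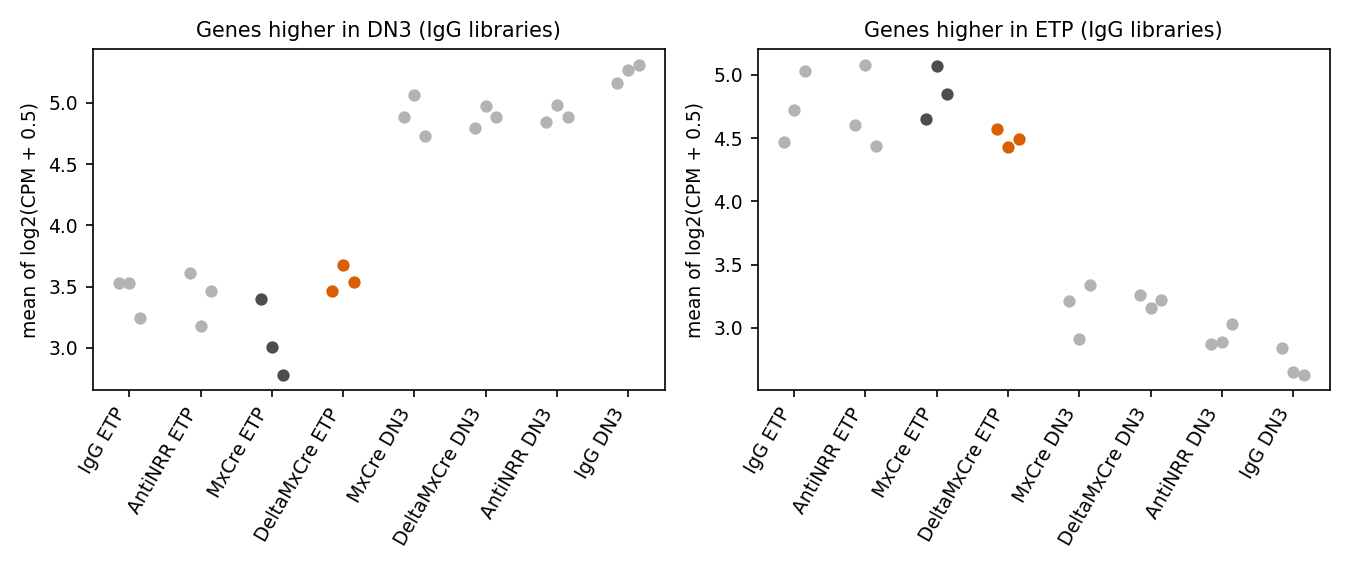
Mean log2(CPM + 0.5) of genes higher in DN3 (313, left) and higher in ETP (466, right) in the 24 libraries of the table, 1 point per library, with MxCre ETP in dark grey and DeltaMxCre ETP in orange. The orange points lie above MxCre ETP at left and below it at right, within or near the spread of the IgG and AntiNRR ETP libraries and far from the DN3 libraries.

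The DESeq2 calls were also sorted by stage. Of 43 genes called higher, 17 were DN3-high and 0 ETP-high, and of 43 called lower, 15 were ETP-high and 0 DN3-high. Among all 12010 genes tested, 275 were DN3-high and 451 ETP-high, and DESeq2 called 0.358% of all genes in each direction. Of the 5 genes edgeR called, Dtx1, Ptcra, Cdh1 and Bst1 were DN3-high, with IgG DN3 minus ETP log2 differences of 2.68, 2.64, 1.56 and 2.33. Il2ra was not a stage gene by this rule (0.66). Gfra1, a co-receptor for glial-derived growth factor, was among the DN3-high genes DESeq2 called higher, at 57.0, 41.7 and 28.1 CPM and then 99.2, 84.7 and 130 CPM. Pcmtd1 was at 129, 99.7 and 154 CPM and then 263, 315 and 261 CPM (log2 fold change 1.13; DESeq2 adjusted p 0.000459). Cdh23, a cadherin, and Spon1 were lower in level, at 4.66 ± 1.19 and 2.38 ± 1.86 CPM in controls (SD, n = 3) and 23.9 ± 15.1 and 15.9 ± 3.66 CPM after deletion (SD, n = 3). Capn5, a calpain protease that was not a stage gene, was at 136, 73.3 and 69.3 CPM and then 225, 246 and 228 CPM (1.33; 0.000804 by DESeq2, 0.179 by edgeR). Mgat4a, a glycosyltransferase, was at 77.3, 81.7 and 75.9 CPM and then 162, 141 and 146 CPM.

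On the lower side, Plek came closest to edgeR's threshold. Plek, or pleckstrin, is a signalling protein of platelets and leukocytes, and it was at 58.6, 56.5 and 24.4 CPM in controls and 8.38, 2.49 and 4.43 CPM after deletion (log2 fold change -3.19; adjusted p 0.0609 by edgeR, 4.63e-06 by DESeq2). Igfbp4, which binds insulin-like growth factors, was at 255, 319 and 372 CPM and then 135, 150 and 94.2 CPM (-1.32; 0.114 by edgeR, 5.33e-05 by DESeq2). Mdga1, a membrane-anchored adhesion protein, was at 96.9, 27.6 and 40.4 CPM and then 14.3, 7.18 and 6.80 CPM. Etv5, an ETS-family transcription factor, was at 22.9, 54.3 and 62.0 CPM and then 12.8, 10.5 and 11.1 CPM. All 4 genes were ETP-high and none overlapped between the groups. In IgG ETP the means were 28 ± 28.1 CPM for Plek and 236 ± 112 for Igfbp4 (SD, n = 3). Those of Mdga1 and Etv5 were 25.2 ± 11 and 39.8 ± 27.9 CPM (SD, n = 3). Chn2, Gem, Rhob and Serpinf1 were further ETP-high genes called lower by DESeq2, with log2 fold changes of -2.72, -3.41, -4.0 and -5.73. Each was below 10 CPM in every deleted library. The controls of Chn2 (11.2, 84.8 and 15.8 CPM), Gem (13.9, 39.6 and 13.4 CPM) and Rhob (7.93, 28.3 and 4.72 CPM) were highest in MxCre ETP 2. Without that library the log2 fold changes were -1.26 for Chn2, -2.71 for Gem, -2.89 for Rhob and -5.57 for Serpinf1, with none called by edgeR.

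Markers of other cells that a thymic sort could hold were read as whole lists. Of 19 myeloid markers 12 were tested (median -1.17, or -0.33 over the 17 with a count), and their summed level was 101 to 245 CPM in MxCre ETP and 64.8 to 99.2 CPM in DeltaMxCre ETP. Mpo, the myeloperoxidase gene of granulocyte precursors, made up much of it, at 159, 146 and 39.4 CPM and then 16.4, 13.6 and 44.3 CPM (DESeq2 adjusted p 0.00308; the groups overlap). The defining neutrophil and monocyte markers S100a8 and Cd14 were at 0 in all 6 libraries, and Elane was at 0 in all but DeltaMxCre ETP 3 (2.42 CPM). Prtn3 (52 counts, all in DeltaMxCre ETP 3) and Cebpa (56 counts, all in DeltaMxCre ETP 2) were likewise at 0 in the controls. Fcgr3, an Fc receptor, had 266 counts in controls and 1 after deletion (ratio 230, counting interval 40.9 to 9101), and most of its control level was in MxCre ETP 3 (10.1 CPM, against 1.24 and 0.655). The part of such cells in the lower levels of stem and progenitor genes was not tested.

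Natural killer and innate lymphoid markers (13 of 19 tested, median -0.95) summed to 250, 679 and 265 CPM in controls and 180, 179 and 187 CPM after deletion. MxCre ETP 2 stood apart here, with 142 CPM of Il2rb against 9.82 and 33.2 in the other controls and 48.9 CPM of Klrk1 against 0 and 18.3. Klrb1c, which encodes the NK1.1 antigen of natural killer cells, was at 0, 47.7 and 10.9 CPM in controls and had 0 counts in all deleted libraries. Gzma, a granzyme that early precursors also express, was at 136, 57.1 and 48.8 CPM and then 28.4, 10.2 and 20.8 CPM (log2 fold change -2.03; 0.291 by edgeR, 0.00374 by DESeq2). Without MxCre ETP 2 edgeR called 1 gene, Dtx1. Of 10 mast cell and basophil markers 2 were tested, and Cpa3 carried the list, at 405, 313 and 481 CPM and then 221, 225 and 114 CPM (-1.10; DESeq2 adjusted p 0.0106). The defining mast cell genes Fcer1a and Tpsb2 were at 0 in all 6 libraries. Mcpt1 (77 counts) and Mcpt4 (53 counts) were seen in DeltaMxCre ETP with 0 in controls, and Hdc (80 counts) in MxCre ETP 2 alone. Over the 8 members with a count the median was 1.10, against -0.80 over the 2 tested.

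B-cell markers summed to 14.4 to 53.6 CPM in controls and 37.6 to 44.5 CPM after deletion, with Pax5 at 0 in all 6 libraries. Erythroid markers summed to 13.6 to 51.4 CPM and 25.0 to 38.4 CPM, with Hba-a1 at 0 in all 6. Dendritic-cell markers summed to 149 to 271 CPM and 163 to 192 CPM. Double-positive thymocyte markers (12 of 12 tested, 9 above 0 and 3 below, median 0.31) had 0 calls by either tool, and Cd8a did not exceed 5.13 CPM in any library. Their sums ran from 691 to 1129 CPM in controls and from 1160 to 1365 CPM after deletion, and Themis, a thymocyte signalling protein, was at 238, 122 and 171 CPM and then 240, 265 and 298 CPM. The part of such cells in the higher genes was not tested. Thymic stromal markers summed to 317 to 488 CPM and 315 to 364 CPM, with Krt5, Krt8, Foxn1 and Col1a1 at 0 in all 6. Their median was 0.56 over the 6 tested and 0.97 over the 10 with a count. Col1a2, a collagen gene of fibroblasts, was at 0 in the controls and 1.15, 1.13 and 1.06 CPM after deletion (56 counts in all; not called by either tool). Col3a1 (46 counts) and Pdgfra (30 counts) were also seen in DeltaMxCre ETP alone, mostly in its library 3. Gamma-delta markers ran from 169 to 360 CPM and from 239 to 382 CPM, and Etv5, already described, was their only DESeq2 call. Mature T-cell markers (12 of 12 tested, median -0.26) had 0 calls by either tool, and their sums were 875, 973 and 916 CPM in controls and 1136, 1011 and 1030 CPM after deletion, without overlap.

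**Figure D4:**
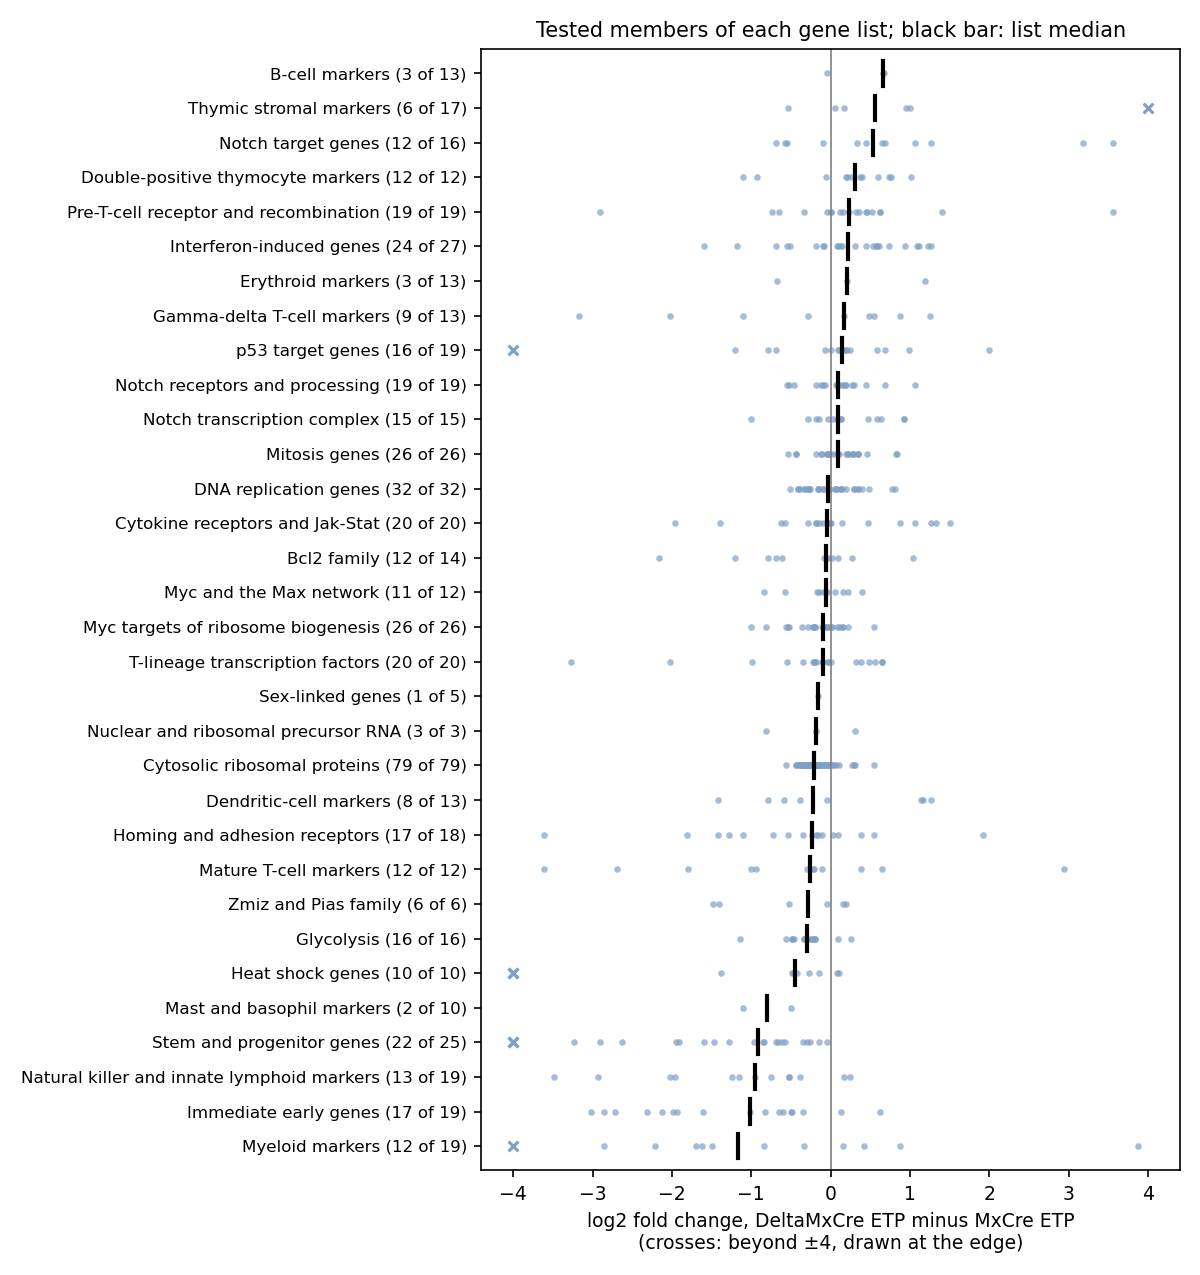
Log2 fold change (DeltaMxCre ETP minus MxCre ETP) of the tested members of each of 32 gene lists, 1 point per gene and a black bar at the list median, with the number tested of all members beside each name. All 22 tested stem and progenitor genes lie below 0, while Dtx1 and Ptcra stand at 3.18 and 3.56 to the right of the other Notch targets. The lists were chosen with earlier results of these data known.

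Cytokine receptors and the Jak-Stat pathway (20 of 20 tested, median -0.04) had Il2ra as the 1 edgeR call. The receptor chains Il7r (-0.58), Il2rg (-0.03) and Il4ra (-0.62) were not called. Of the feedback inhibitors, Cish was at 13.1, 16.5 and 21.8 CPM and then 63.5, 47.6 and 34.4 CPM (log2 fold change 1.5; 0.386 by edgeR, 0.0356 by DESeq2), and Socs3 at 31.9, 14 and 12.4 CPM and then 42.4, 62.2 and 41.5 CPM (1.33; not called by either tool). Neither overlapped between groups. Homing and adhesion receptors (17 of 18 tested, median -0.24) had Cdh1 as the 1 edgeR call. Ccr9, the chemokine receptor that guides progenitors to the thymus, overlapped (45.4, 96.2 and 13.9 CPM, then 13.0, 17.4 and 27.7 CPM), and Cxcr4 was at 200, 172 and 208 CPM and then 291, 246 and 313 CPM without a call.

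Since pI-pC induces interferon, its response genes were read in both groups. Of 27 interferon-induced genes 24 were tested, 16 above 0 and 8 below, with a median of 0.22 and 0 calls by either tool. The groups did not overlap for 4 higher and 1 lower (6.16% and 6.39% of all genes). Rtp4 (14.1, 31.1 and 12.6 CPM, then 60.3, 39.2 and 39.7 CPM) had the largest log2 fold change of those, 1.27. Outside the list, DESeq2 called the interferon-induced guanylate-binding genes Gbp4 (72.3, 58.6 and 102 CPM, then 182, 139 and 147 CPM; adjusted p 0.0345) and Gbp9 (86.4, 42.1 and 58.8 CPM, then 157, 117 and 126 CPM; 0.0424) higher, and both were DN3-high. These genes were chosen after their values were seen. Heat shock genes (10 of 10 tested, median -0.45) were lower without overlap for 5 and higher for 0 (6.39% and 6.16% of all genes). Hsph1, a co-chaperone, was at 155, 216 and 115 CPM and then 73.0, 51.3 and 62.7 CPM (-1.38; 0.166 by edgeR, 0.000829 by DESeq2), and Hsp90ab1 at 2876, 2977 and 3547 CPM and then 2448, 1912 and 2364 CPM. Immediate early genes (17 of 19 tested, median -1.02) were led by 1 control library: Egr1 was at 8.47, 67.6 and 7.26 CPM and then 1.34, 7.29 and 1.6 CPM. Dusp1 (12.0, 44.8 and 24.4 CPM, then 4.74, 4.92 and 6.74 CPM) was their 1 DESeq2 call.

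Genes of growth and division were not called. DNA replication (32 of 32 tested, median -0.03), mitosis (26 of 26, median 0.09) and Myc targets of ribosome biogenesis (26 of 26, median -0.09) had 0 calls by either tool. DNA replication genes ranged from 5031 to 10017 CPM among the controls alone, with MxCre ETP 3 highest. Cytosolic ribosomal proteins lay lower for 71 of 79 genes, with a median of -0.21 and sums that overlapped (50580, 63835 and 81211 CPM, then 58947, 50973 and 55623 CPM). Glycolysis genes (16 of 16 tested) had a median of -0.30 and 0 calls by either tool. Without overlap, 4 were lower and 0 higher (6.39% and 6.16% of all genes). Gpi1 was at 475, 470 and 619 CPM and then 345, 409 and 359 CPM.

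The same deletion in DN3 cells, with 3 libraries a group, was used to ask whether the response differs by stage. The labels write the DN3 gate as CD44 positive and CD25 negative, which is not the usual DN3 phenotype, and in MxCre DN3 Cd44 was at 5.51 CPM and Il2ra at 3314 CPM. This deletion gave 125 higher and 58 lower genes of 12675 by edgeR, and the difference between the 2 effects was tested as an interaction. By edgeR, 1 of 13406 genes had a larger log2 fold change in ETP (0.00746%) and 0 a smaller one (0%), and DESeq2 called 25 and 25. That gene was Fbln2, the extracellular matrix protein fibulin 2, which had no count in any MxCre ETP library and 3.01, 7.52 and 3.25 CPM in DeltaMxCre ETP. Against a floor of 3 counts over the group, 235 counts are at least 90.8-fold higher. Fbln2 was not low in the other ETP controls, with 5.72 ± 3.34 CPM in IgG ETP (SD, n = 3). Zmiz1 had a log2 fold change of -1.41 in each stage. Dtx1 had 3.18 in ETP and 1.13 in DN3 (difference 2.05, SE 0.436; interaction adjusted p 0.253, edgeR), and Bst1 had 2.54 and 0.81 (difference 1.73, SE 0.364; 0.223). Ptcra had 3.56 and 0.16, and its difference of 3.39 (SE 0.527) had an adjusted p of 0.0652. In level, Ptcra was at 161 ± 34.2 CPM in MxCre DN3 and 181 ± 19.1 CPM in DeltaMxCre DN3 (SD, n = 3). Rag1 had opposite signs, 1.40 in ETP and -0.77 in DN3, where edgeR called it lower (adjusted p 0.0161), yet its difference of 2.16 (SE 0.435) did not pass edgeR's test (0.218). Cd44 (-1.28 in ETP and -3.06 in DN3), Bcl11a (-1.47 and -2.01) and Cd34 (-1.91 and -1.92) were lower in both stages, though the DN3 level of Cd34 was 0.724 ± 0.173 CPM in controls (SD, n = 3). Lat2, an adaptor protein, had -0.72 and 1.16 (difference -1.89; 0.218). DESeq2's interaction test passed for Ptcra (adjusted p 3.39e-07), Rag1 (7.53e-05), Dtx1 (0.00264), Lat2 (0.00447) and Bst1 (0.00638).

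Blocking Notch1 for 24 hours in ETP gave 0 higher and 0 lower genes of 12568 by edgeR, and its libraries share none with the deletion. The difference between the effect of deletion and that of the block was called for 11 of 13408 genes, 8 higher (0.0597%) and 3 lower (0.0224%). DESeq2 called 48 and 32. Among them, Il2ra, Bst1, Cdh1, Notch1, Capn5, Pld4 and Rapgef2 were above 0 after deletion and below 0 under the block, and Cpa3, Mdga1 and Il4ra the reverse. The other was Gm20605, an unnamed gene model with 0 counts in MxCre ETP.

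Capn5 had a log2 fold change of 1.33 after deletion and -1.07 under the block, a difference of 2.41 (SE 0.328; adjusted p 0.00317, edgeR). Cdh1 had 1.92 and -0.45 (difference 2.39, SE 0.371; 0.00757), and Bst1 2.54 and -1.34 (difference 3.90, SE 0.642; 0.0156). Notch1 had 0.69 and -0.87 (difference 1.57, SE 0.280; 0.0177), and Il2ra 1.27 and -1.91 (difference 3.20, SE 0.515; 0.0396). For Capn5, Notch1, Cpa3, Mdga1, Pld4, Rapgef2 and Il4ra the difference passed edgeR's test while neither single effect did. Cpa3 had -1.10 after deletion and 1.16 under the block (difference -2.25, SE 0.338; 0.00757), and Mdga1 -2.54 and 1.27 (difference -3.80, SE 0.638; 0.0177). Dtx1 and Ptcra had wide differences of 6.20 (SE 1.45; 0.338) and 5.99 (SE 1.14; 0.107) that did not pass edgeR's test and passed DESeq2's (adjusted p 0.0157 and 2.63e-06); under the block their levels were 3.22 ± 4.72 and 6.26 ± 7.93 CPM (SD, n = 3), close to 0 with a spread as large as the mean. The Il2ra call was lost without any 1 of the 6 deletion libraries (adjusted p from 0.0796 to 0.172). The Notch1 call was lost without MxCre ETP 2 (0.105) or any 1 deleted library (0.0557 to 0.069), Mdga1 without DeltaMxCre ETP 2 (0.114) or 3 (0.0719), and Bst1 without DeltaMxCre ETP 2 (0.0502). Pld4, Rapgef2 and Il4ra each lost the call without 1 or more of the deletion libraries. The IgG and AntiNRR libraries were not left out.

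**Figure D5:**
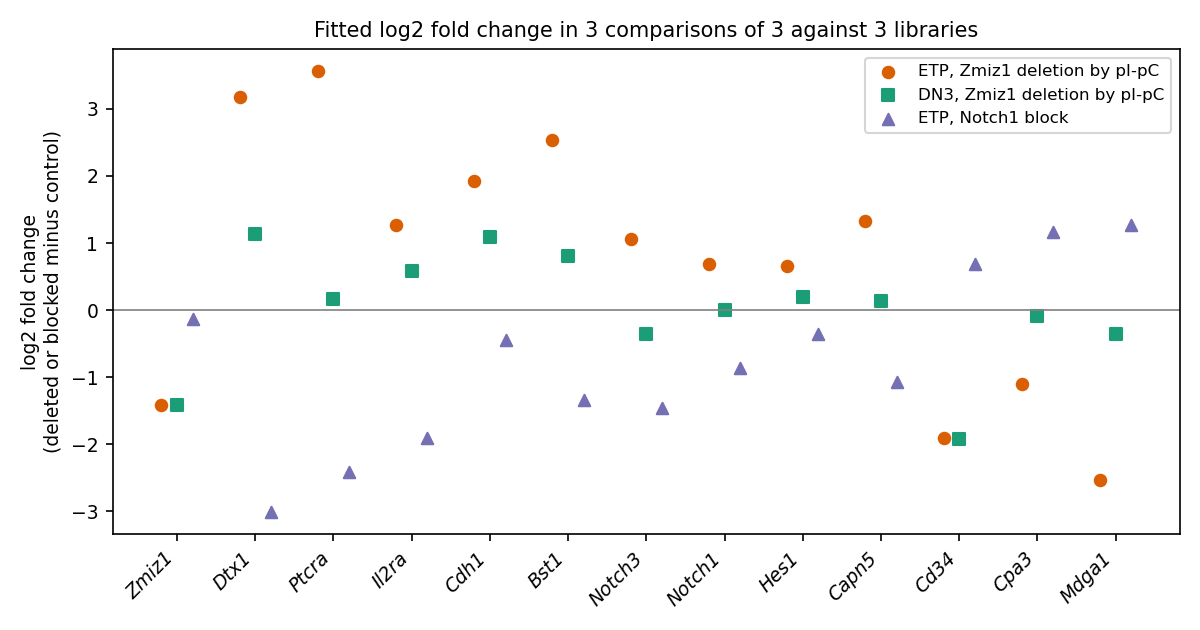
Fitted log2 fold change of 13 genes after Zmiz1 deletion by pI-pC in ETP (circles), after the same deletion in DN3 (squares) and under Notch1 block in ETP (triangles), 3 libraries a group. Dtx1, Ptcra, Il2ra, Cdh1 and Bst1 lie above 0 after deletion in ETP and below 0 under the block, and Zmiz1 lies at -1.41 after deletion in both stages.

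Deletion by tamoxifen in ETP, read 43 to 44 hours after injection in 4 mice a group with another library kit, gave 0 higher and 0 lower genes of 12924 by edgeR. Its values stand here side by side with no test across kits. Zmiz1 had a log2 fold change of -1.13, Dtx1 0.72, Cdh1 0.76, Bst1 0.34, Ptcra 0.38, Il2ra -0.13 and Notch3 0.16. For the progenitor genes they were 0.60 for Cd34, 0.49 for Flt3, 0.34 for Cd44 and 0.29 for Bcl11a, where the pI-pC values were all below 0. The intervals, the kits and the cells that lose Zmiz1 all differ between these experiments.

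Total counts ran from 16985331 to 23962394 in MxCre ETP and from 15530101 to 17064845 in DeltaMxCre ETP. The ribosomal precursor Rn45s took 12.8% to 16.3% of them. Rank correlations between libraries were 0.907 to 0.927 within MxCre ETP and 0.936 to 0.955 within DeltaMxCre ETP, so the controls were the more spread group. Between the groups they were 0.908 to 0.938, no lower than among the controls. On the first principal component, MxCre ETP 3 (98.7) and DeltaMxCre ETP 2 (-87.0) stood at the ends. The groups were not separated on it: MxCre ETP 1 (-16) lay beyond DeltaMxCre ETP 1 (-10.5) and 3 (-12.5). Voom's quality weights were 0.692, 1.31 and 0.429 for the controls and 1.96, 0.854 and 1.54 for the deleted libraries. Xist was high in all 6 libraries and Y-linked genes had 1 count in all, so sex did not divide the groups.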

How the data were processed

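RNA-seq was read from 6 of 40 libraries, 3 per group, of 1 table of 23284 genes and 24 libraries. The authors deposited estimated counts per gene, and 0.712% of the values lay more than 0.01 from a whole number, so values were rounded. Per the submitters' processing notes, the tools named include TopHat2 2.0.9 and Bowtie2 2.1.0.0, then Cuffdiff 2.1.1 with Cufflinks, and FastQC 0.10.0, with no role given, and the mouse build is mm10. The annotation, the counting settings and the use of strand are not given in the sources used here, so overlapping and antisense genes cannot be told apart. Per the labels' protocols, libraries came from 10 ng of RNA, depleted of ribosomal RNA and amplified by 16 PCR cycles with a low-input kit, so intervals cover counting error only. Groups were taken from the sample titles.

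In R 4.3.3, edgeR 4.0.16 kept genes with filterByExpr (minimum count 10, minimum total 15), scaled libraries by TMM and fitted the robust quasi-likelihood test to the 6 libraries, with a prior count of 0.125 and Benjamini-Hochberg adjusted p under 0.05. DESeq2 1.42.0 and limma 3.58.1 (voom) were alternatives, beside other filters, scalings, a shared spread, a replicate block and leaving out each library. DESeq2 gave no adjusted p for 47 genes. Differences between deletion in ETP and in DN3, or Notch1 block, were interaction terms over 12 libraries of the same table. Stage genes came from IgG DN3 against IgG ETP. The scripts were tested on simulated data.

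The text draws on a fixed set of Notch, stage and progenitor genes, every edgeR call and up to 3 members of each list. It also draws on the 10 genes of lowest p in each direction whose groups did not overlap. The 8 largest DESeq2 changes each way and the 4 genes of lowest p in each interaction were added. These sets by p or size of change took only named genes whose mean over the 6 libraries reached 5 CPM. Larger DESeq2 changes at lower levels, such as Tceal8 (log2 fold change -9.01), were outside them. Some genes of these sets, such as B4galnt2, Odz1 and Scn4b, are not described here. Other list members, among them Hoxa9, Gfi1b, Klrb1c and the markers at 0, were chosen after their values were seen. The members and the 32 gene lists (564 genes, 5 without a match in the table) were chosen with earlier results of these data known. Some list members are not reported here.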

Additional observations from a re-analysis of the deposited data

Results flagged for a closer look

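Fbln2, the gene of the matrix protein fibulin 2, is listed because the effect of Zmiz1 deletion differed between ETP and DN3 by a test of the difference itself (adjusted p 0.0271, edgeR quasi-likelihood interaction). It had 235 counts over DeltaMxCre ETP and 0 over MxCre ETP, while DN3 levels were 12.8 ± 4.63 CPM in MxCre and 13.9 ± 1.19 CPM in DeltaMxCre (SD, n = 3). The fitted difference depends on the prior count, since 1 group is at 0.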

How the results depend on the processing

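The 5 higher and 0 lower calls of the ETP deletion became 43 and 43 with DESeq2, 11 and 8 with limma voom, 9 and 9 with no filter beyond 1 count, 5 and 1 with a mean filter of 10 counts, 6 and 1 with the spread shared by the 4 ETP groups, 3 and 0 without Rn45s in the library sizes and 2 and 0 without the robust option. DESeq2 size factors gave 5 and 0. Leaving out 1 library gave 0 to 12 higher and 0 to 5 lower calls, with 0 higher without any 1 of the DeltaMxCre libraries, 1 without MxCre ETP 2 and 12 without MxCre ETP 1. The fit with shared spread kept 2 of the 5 genes, Bst1 and Cdh1, and the one without Rn45s kept these and Dtx1. The difference from the DN3 deletion gave 25 higher and 25 lower calls with DESeq2, and 1 to 12 and 0 to 1 without 1 MxCre or DeltaMxCre ETP library. The difference from the Notch1 block gave 48 and 32 with DESeq2, and 4 to 20 and 2 to 7 without 1 MxCre or DeltaMxCre ETP library. For these differences no DN3, IgG or AntiNRR library was left out. The median of ETP-high genes was -0.63 at a log2 difference of 2. Nrarp ran from -0.36 to 0.72, Myc from -0.27 to 0.03 and Sfpi1 from -0.50 to 0.29 when 1 library was left out, so their signs turned. The cause of these changes was not tested. Leaving out each library for the stage genes was chosen after seeing the data.

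The labels state no pairing or batch. Same-numbered libraries did not deviate together (correlations -0.02, -0.00 and 0.02), but with 3 libraries a group this check cannot exclude a pairing. With the replicate block, edgeR called 7 higher and 7 lower genes, the 5 among them. With 3 libraries a group and a biological coefficient of variation of 0.624, low genes are measured with little precision.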

Other observations

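Omp, the olfactory marker protein gene, was at 0.432, 0.417 and 0.525 CPM in MxCre ETP and 11, 6.67 and 18.2 CPM in DeltaMxCre ETP (DESeq2 adjusted p 3.31e-05; edgeR adjusted p 0.252). Omp (chr7:98143359-98145502) lies within Capn5 (chr7:98121559-98178274) on the same strand, and Capn5 was higher too (log2 fold change 1.33), so reads of the 2 genes cannot be told apart here. Hoxa7, a homeobox gene beside Hoxa9, was at 16.5, 12.3 and 43.8 CPM and then 1.73, 0.452 and 7.51 CPM, without overlap and not called by edgeR.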
